A study of Homo sapiens with 9 samples.

Results

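The 9 genes described here are 6 cytochromes P450 (CYP3A4, CYP3A5, CYP2B6, CYP2C19, CYP2J2 and CYP2S1), the carboxylesterases CES1 and CES2, and NR1I2, which encodes the pregnane X receptor (PXR). They were taken by NCBI Gene ID from the 28395 genes of each count file, by name. All 9 passed the filter on low counts, which kept 16017 genes. The libraries came from differentiated Caco-2 cells with the genotype label WT, an established human colorectal adenocarcinoma line that forms an enterocyte-like monolayer in culture. After 24 h, 3 samples each had received regular medium (control), medium with 10 µM carmine, or medium with 20 µM carminic acid. Both are red food colours from cochineal insects: carminic acid is an anthraquinone glycoside, and carmine its complex with aluminium. Each compound was used at 1 dose, and the doses differed, so compound and dose cannot be told apart. The labels do not say whether the 3 samples of a group were separate passages. The p-values therefore set group differences against a spread between samples that may be only technical. All groups are from 1 cell line.

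Cytochromes P450 are membrane-bound heme enzymes that oxidise drugs, steroids and fatty acids with electrons from NADPH-cytochrome P450 reductase. Carboxylesterases hydrolyse ester and amide drugs in the endoplasmic reticulum. In the small intestine CYP3A4 is the main P450 and CES2 the main carboxylesterase, whereas CES1 is the liver form and is known to be abundant in Caco-2 cells. PXR binds many foreign compounds, pairs with the retinoid X receptor and switches on CYP3A4, CYP2B6 and CYP2C genes. CYP3A4 is known to be low in ordinary Caco-2 cultures.

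Total counts ran from 54871018 to 57581301 per library. Library C of the carmine group stood apart on the first principal component, at 34.5 against -19.4 to 14.5 in the other 8, and the values of the members without it are given beside or after their results. The share of counts on mitochondrial genes was 1.94% to 2.51% in control, 0.974% to 1.30% with carmine and 1.24% to 2.08% with carminic acid. Of 16 enterocyte markers 15 passed the filter, with summed levels of 10787 to 12622 CPM (counts in each 1e6 of the library, scaled by TMM library factors) in control, 11471 to 12947 with carmine and 11984 to 12639 with carminic acid. The annotation used for counting is not given in the sources used here, and its part in the zero counts of KRT20 was not tested. KRT20 had no count in any library, whereas the villin gene VIL1 reached 1107 to 1346 CPM. Hepatocyte markers, 15 of 16 tested, summed to 2093 to 2229 CPM in control. Their sum was 2451 to 2557 CPM with carmine and 2318 to 2472 CPM with carminic acid. Most of it came from SERPINA1 (769 to 965 CPM over the 9 libraries) and APOC3 (530 to 813 CPM). Of the 15 tested, 12 had positive log2 fold changes with carmine and 3 negative, and 13 and 2 with carminic acid. The bile acid enzyme gene CYP7A1 did not exceed 0.146 CPM. Goblet, enteroendocrine and Paneth markers summed to 301 to 355, 321 to 336 and 301 to 345 CPM, with NEUROD1 and DEFA5 without a count. Most of this sum came from AGR2 (161 to 229 CPM over the 9 libraries) and ZG16 (87.1 to 119 CPM). Stromal, endothelial and immune markers summed to 433 to 507, 455 to 490 and 464 to 519 CPM. Most of that sum came from CD68 (300 to 389 CPM) and COL1A1 (93.6 to 146 CPM), whereas COL1A2 and PTPRC did not exceed 0.0357 and 0.0547 CPM. Proliferation and stem cell markers summed to 772 to 833, 696 to 827 and 720 to 789 CPM. The part of the mitochondrial share and of the hepatocyte markers in the results below was not tested.

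PXR is best known for binding paired copies of a short motif in the upstream DNA of CYP3A genes. The 250 bases before the annotated start of CYP3A4 and CYP3A5 are shown because both hold such a pair within them, and those of CYP2C19 because it had the smallest p of all members in the comparison of carmine with control. The CYP3A4 stretch is chr7:99784185-99784434, the CYP3A5 stretch chr7:99679997-99680246 (both on the minus strand) and the CYP2C19 stretch chr10:94762431-94762680 (plus strand), from RefSeq on GRCh38.p14, written 5′ to 3′ along the gene. Capitals mark AGGTCA or AGTTCA on either strand, which reads TGACCT or TGAACT on the other.
CYP3A4: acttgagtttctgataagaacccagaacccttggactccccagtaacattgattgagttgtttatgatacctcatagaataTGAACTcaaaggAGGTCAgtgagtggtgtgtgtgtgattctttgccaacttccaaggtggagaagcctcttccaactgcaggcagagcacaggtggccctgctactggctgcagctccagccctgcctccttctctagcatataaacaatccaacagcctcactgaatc
CYP3A5: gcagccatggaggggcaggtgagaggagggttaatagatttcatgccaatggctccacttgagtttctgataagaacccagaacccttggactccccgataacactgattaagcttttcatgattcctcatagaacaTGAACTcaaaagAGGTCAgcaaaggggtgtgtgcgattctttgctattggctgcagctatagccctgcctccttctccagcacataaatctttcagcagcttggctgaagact
CYP2C19: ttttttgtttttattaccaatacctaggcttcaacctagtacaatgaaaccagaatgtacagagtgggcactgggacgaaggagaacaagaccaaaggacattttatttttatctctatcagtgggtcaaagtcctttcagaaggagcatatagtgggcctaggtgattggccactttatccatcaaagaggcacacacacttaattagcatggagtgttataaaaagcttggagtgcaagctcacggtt
In CYP3A4 the 2 marked motifs began 169 and 157 bases before the start, and in CYP3A5 113 and 101 bases before it. In both genes they point away from each other with 6 bases between them, an arrangement called an everted repeat. Of the 35116 upstream stretches of this length in the table, 6 (0.0171%) held such a repeat of these letters, namely those of CYP3A4, CYP3A5, ITGB1BP2, LINC01639, LOC101928626 and LOC107984792. The CYP3A4 and CYP3A5 stretches matched at 84.4% of 192 aligned bases. A lone motif was far more common, with 19.7% of all stretches holding at least 1. Of 2 annotated starts of NR1I2, the one farther upstream had AGTTCA 150 bases before it. The stretch before the other held none of these letters. CYP2B6 held AGGTCA 164 bases before its start and CYP2S1 TGACCT at 181 bases. The stretches of CYP2C19, CYP2J2 and CES2 held none of these letters, which says nothing about binding farther away.

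The members fell into an abundant and a scarce class in these cells. Per kilobase of transcript, the mean over the 9 libraries was highest for CES1, at 36.2 CPM per kb (range 30.6 to 44.5), followed by CYP2S1 at 30.9 (28.1 to 34.6). CYP3A5 stood at 16.5 (14.6 to 18.9), CES2 at 15.5 (14.7 to 17.3) and CYP2C19 at 12.4 CPM per kb (10.1 to 15.3). CYP2J2 was lower, at 3.80 CPM per kb (3.07 to 4.77). The scarce class comprised CYP3A4 at 0.333 (0.199 to 0.458), CYP2B6 at 0.259 (0.208 to 0.337) and NR1I2 at 0.226 CPM per kb (0.136 to 0.309). Thus the P450 that dominates the intestine was near the bottom of the list here, and its neighbour CYP3A5, with the same everted repeat, was in the abundant class.

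Neighbours in this order were not always separate. CES1 and CYP2S1 overlapped per kb in control and with carminic acid, CYP3A5 and CES2 overlapped with carmine and with carminic acid, and CES2 and CYP2C19 overlapped in control. CYP3A4 and CYP2B6 overlapped in control and with carminic acid, and CYP2B6 and NR1I2 in all 3 groups. The steps from CYP2S1 down to CYP3A5, from CYP2C19 to CYP2J2 and from CYP2J2 to CYP3A4 were without overlap in every group. The order also depends on the division by length. In plain CPM, the mean over the 9 libraries was higher for CYP2S1 (85.9) than for CES1 (78.9). It was also higher for CES2 (61.1) than for CYP3A5 (54.6), and for NR1I2 (0.999) than for CYP2B6 (0.792) and CYP3A4 (0.716).

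**Figure D1:**
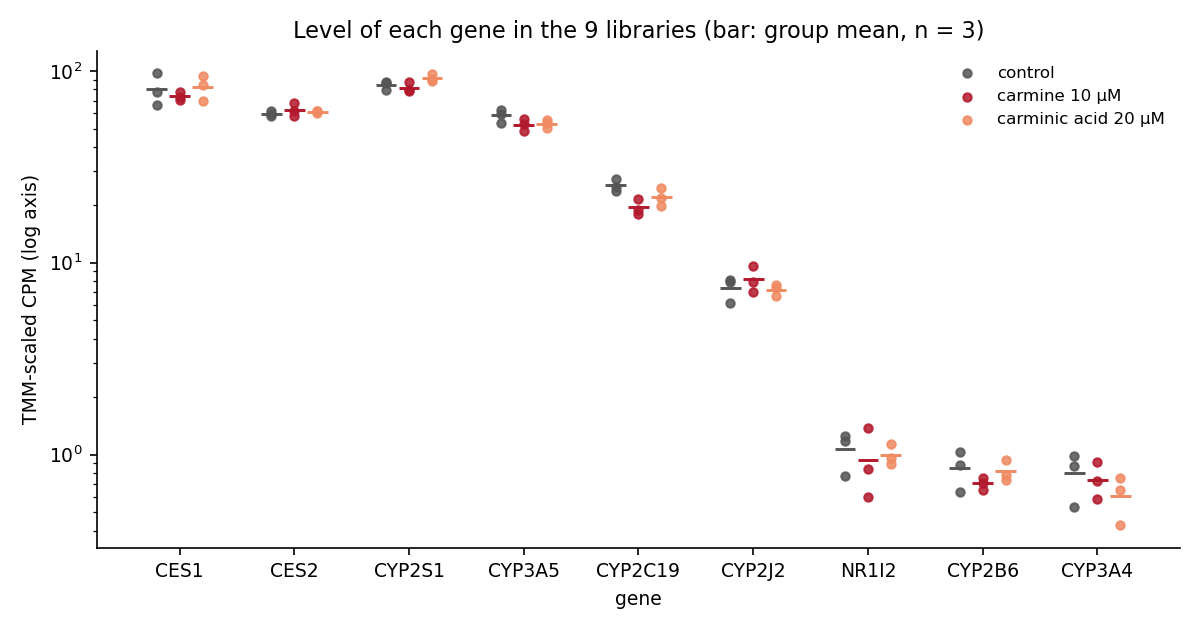
Level of each of the 9 genes in TMM-scaled CPM on a log axis, with 1 point per library and a bar at the group mean (n = 3), for control, carmine and carminic acid. CES1, CES2, CYP2S1, CYP3A5 and CYP2C19 lie between 18.0 and 97.0 CPM and NR1I2, CYP2B6 and CYP3A4 between 0.428 and 1.37 CPM, and within a gene the 3 groups lie close together.

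No member passed the edgeR test in any of the 3 comparisons, and intervals for the abundant genes were narrow. With carmine against control, 0 of 9 members and 0 of 16017 genes (0%) were called at an adjusted p under 0.05, and at an unadjusted p under 0.05 there were 1 member (CYP2C19) and 1760 genes (11.0%). With carminic acid against control, 0 members and 0 genes (0%) were called, and 0 members and 1030 genes (6.43%) had an unadjusted p under 0.05. Carmine against carminic acid gave 0 members and 1 gene (0.00624%), CNIH1, which helps load cargo into transport vesicles of the endoplasmic reticulum, with 1 member (CYP2S1) and 1426 genes (8.90%) at an unadjusted p under 0.05. DESeq2 and limma-voom called no member in any of the 3 comparisons either. For carmine against carminic acid, however, DESeq2 gave CYP3A4 no adjusted p, so it could not be called there.

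Most members had negative log2 fold changes in each comparison. Of the 9, 2 were positive with carmine and 3 with carminic acid, and 3 were positive for carmine against carminic acid. Among all tested genes 51.7%, 48.1% and 51.1% were positive. The median log2 fold change of the members was -0.13, -0.05 and -0.10 in these 3 comparisons, beside 0.007, -0.008 and 0.005 over all tested genes. The first 2 comparisons share the control libraries, so their values are not independent of each other. Carmine against carminic acid uses the treated libraries of both, so its values are not independent of theirs either. In bulk RNA, fewer cells that express a gene and less RNA per cell cannot be told apart.

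**Figure D2:**
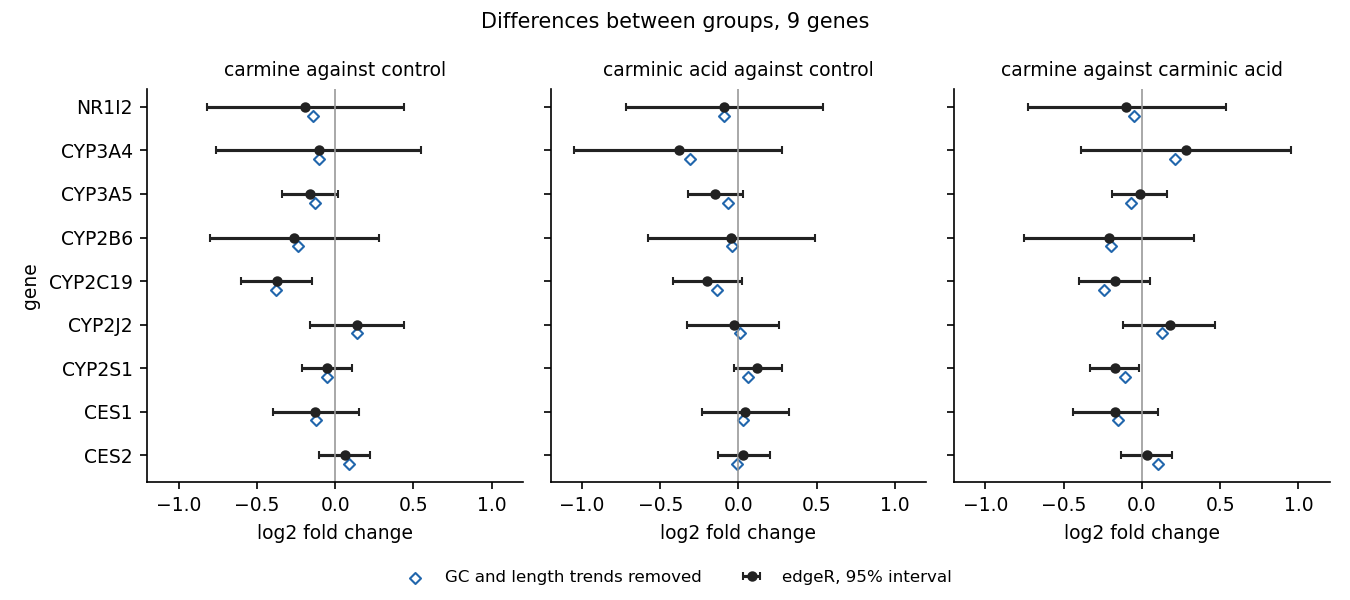
Log2 fold change of each of the 9 genes in the 3 comparisons, as circles with 95% intervals from edgeR (n = 3 per group) and as diamonds after removal of trends in GC content and transcript length. Of the 27 intervals only those of CYP2C19 for carmine against control and of CYP2S1 for carmine against carminic acid lie wholly on one side of 0, before adjustment for the number of genes.

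NR1I2, the gene of the receptor itself, was scarce and variable. It had 70, 66 and 44 counts in control A, B and C (1.25, 1.17 and 0.771 CPM), 35, 47 and 75 with carmine (0.601, 0.837 and 1.37 CPM) and 51, 54 and 63 with carminic acid (0.893, 0.964 and 1.14 CPM). The groups overlapped, and both the lowest and the highest value of all 9 libraries were carmine libraries. The log2 fold change was -0.19 with carmine (SE 0.296, 95% interval -0.82 to 0.44, edgeR adjusted p = 0.828) and -0.09 with carminic acid (SE 0.295, interval -0.72 to 0.54, 0.941). Without carmine C the carmine value was -0.56 (edgeR adjusted p = 0.455). The spread within groups was a coefficient of variation of 28.9%, of which counting alone would give 13.3%. Changes of NR1I2 within the printed intervals were not excluded, and these intervals are not limits of detection.

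CYP3A4, the classical PXR target, lies at positions 99756967 to 99784184 of chromosome 7. Its counts were 55, 30 and 50 in control (0.985, 0.530 and 0.876 CPM), 53, 41 and 32 with carmine (0.910, 0.730 and 0.583 CPM) and 43, 24 and 36 with carminic acid (0.753, 0.428 and 0.651 CPM). No group stood clear of another. Against control the log2 fold change was -0.10 with carmine (SE 0.306, interval -0.76 to 0.55, edgeR adjusted p = 0.920) and -0.38 with carminic acid (SE 0.311, interval -1.05 to 0.28, 0.747). Without carmine C the first value was 0.047 and with limma-voom 0.16, so its direction is not settled. A fold above 1.47 with carmine or 1.22 with carminic acid lay outside these intervals. CYP3A7, the fetal enzyme, was as scarce, at 0.583 ± 0.174, 0.601 ± 0.0950 and 0.457 ± 0.0301 CPM (SD, n = 3) in control, carmine and carminic acid. It shares 8.32% of the 50-base stretches of CYP3A4, with a longest identical run of 102 bases, so reads may have been split or dropped between them. CYP3A5, with far higher counts, holds 3.42% of these stretches, with a longest identical run of 112 bases. The part of CYP3A5 reads in the CYP3A4 counts was not tested. CYP3A43 did not exceed 0.103 CPM.

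CYP3A5, which overlaps CYP3A4 in substrates, lies at 99648194 to 99679996 on the same chromosome. It was at 59.3, 62.8 and 53.5 CPM in control, 52.9, 55.8 and 48.6 CPM with carmine and 53.3, 50.5 and 55.1 CPM with carminic acid. Control A and B were the 2 highest libraries, and control C lay among the treated ones. The log2 fold change was -0.16 with carmine (SE 0.0830, interval -0.34 to 0.02, edgeR adjusted p = 0.477) and -0.15 with carminic acid (SE 0.0830, interval -0.32 to 0.03, 0.717). With trends in GC content and length removed these became -0.13 and -0.07. CYP3A4 made up 1.36% ± 0.453 of the joint counts of CYP3A4 and CYP3A5 in control, 1.39% ± 0.266 with carmine and 1.13% ± 0.278 with carminic acid (SD, n = 3). Reads shared between these transcripts could move these values.

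CYP2B6, which metabolises bupropion and efavirenz and is induced through PXR and the related receptor CAR, gave 36 to 59 counts per library in control, 36 to 44 with carmine and 42 to 52 with carminic acid. Its level was 0.849 ± 0.200, 0.708 ± 0.0499 and 0.821 ± 0.107 CPM (SD, n = 3). The spread within groups (16.1%) was close to the counting error alone (15.0%). Log2 fold changes were -0.26 with carmine (interval -0.80 to 0.28) and -0.05 with carminic acid (interval -0.58 to 0.49). The pseudogene CYP2B7P, with an identical run of 122 bases, was at 1.17 ± 0.179, 1.13 ± 0.255 and 1.16 ± 0.110 CPM, above the enzyme gene in mean. Reads shared between the pair could move either value.

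CYP2C19, the enzyme that activates clopidogrel and clears proton pump inhibitors, was the member farthest from control with carmine. It lies at 94762681 to 94855547 on chromosome 10. Control libraries had 1531, 1410 and 1340 counts (27.4, 24.9 and 23.5 CPM), carmine libraries 1251, 1013 and 1040 (21.5, 18.0 and 18.9 CPM) and carminic acid libraries 1241, 1103 and 1358 (21.7, 19.7 and 24.6 CPM). All 3 carmine libraries were below all 3 control libraries, whereas carminic acid C lay among the controls. Being wholly lower with carmine held for 1 of 9 members beside 7.67% of all tested genes, and being wholly higher for 0 members beside 7.32%. The log2 fold change was -0.37 with carmine (SE 0.104, interval -0.60 to -0.15), a fold of 0.771 with an edgeR p of 0.00269 before and 0.332 after adjustment. Its size exceeded that of 88.8% of tested genes. With carminic acid it was -0.20 (SE 0.103, interval -0.42 to 0.02, edgeR adjusted p = 0.717), and carmine against carminic acid gave -0.17 (SE 0.104, interval -0.40 to 0.05, 0.650).

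The carmine difference in CYP2C19 was on the edge of the threshold under removal of trends. With trends in GC content and length removed it was -0.38 with an edgeR adjusted p of 0.0431, in a fit that called 371 genes in all. It was the only member called under any alternative. A smoother trend with 3 spline terms in place of 5, tried after seeing the data like the other variations of this fit, gave 0.0423. Removal of the GC trend alone gave 0.0663, and removal of both trends without carmine C gave 0.109. Without carmine C and with the trends left in, the log2 fold change was -0.35 (edgeR adjusted p = 0.155). Log2 fold changes of all genes in this comparison correlated with GC content at a Spearman rho of 0.14 and with length at -0.26, across genes, which are not independent replicates.

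CYP2C8 and CYP2C18, of the same subfamily, were scarce, and their groups overlapped. CYP2C8 was at 0.307 ± 0.144 CPM in control, 0.173 ± 0.0905 with carmine and 0.202 ± 0.101 with carminic acid (SD, n = 3), with a log2 fold change of -0.83 with carmine (edgeR adjusted p = 0.563). CYP2C18 was at 0.242 ± 0.0487, 0.144 ± 0.120 and 0.220 ± 0.103 CPM, with -0.75 with carmine (edgeR adjusted p = 0.646). CYP2C18 holds 0.805% of the 50-base stretches of CYP2C19, with a longest run of 56 bases. How multi-mapped reads were handled is not given in the sources used here. Reads shared with close relatives may therefore be included in, or missing from, the values of CYP2C19.

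CYP2J2, which turns arachidonic acid into epoxides, was at 6.16, 8.12 and 7.97 CPM in control, 7.04, 9.56 and 7.94 CPM with carmine and 6.67, 7.41 and 7.65 CPM with carminic acid. Groups overlapped throughout, with the lowest library in control and the highest with carmine. Its log2 fold change was 0.14 with carmine (interval -0.16 to 0.44, edgeR adjusted p = 0.709) and -0.03 with carminic acid (interval -0.33 to 0.26, 0.951).

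CYP2S1, an epithelial P450 known as a target of the aryl hydrocarbon receptor, was the only member whose carmine and carminic acid libraries did not overlap. It was at 87.0, 86.8 and 79.3 CPM in control, 78.1, 79.2 and 87.3 CPM with carmine and 89.0, 90.5 and 96.3 CPM with carminic acid. Carminic acid libraries were above every control and every carmine library, while carmine and control overlapped. For carminic acid against control, 1 of 9 members was wholly higher beside 12.0% of all genes, and 0 were wholly lower beside 8.82%. Carmine against carminic acid had 1 of 9 wholly lower beside 6.01% of genes and 0 wholly higher beside 7.09%. Against control the log2 fold change was 0.12 with carminic acid (SE 0.0741, interval -0.03 to 0.28, edgeR adjusted p = 0.717) and -0.05 with carmine (SE 0.0742, interval -0.21 to 0.11, 0.816). Carmine against carminic acid gave -0.17 (SE 0.0741, interval -0.33 to -0.02, edgeR adjusted p = 0.524), and -0.22 without carmine C (edgeR adjusted p = 0.0690). With the trends removed the groups overlapped in both comparisons, at 0.06 and -0.11, and log2 fold changes of all genes for carminic acid against control correlated with GC content at a Spearman rho of 0.48 across genes. The CYP2S1 transcript has a GC content of 61.0%, the highest of the 9 members. The part of GC content in the CYP2S1 differences was not tested.

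**Figure D3:**
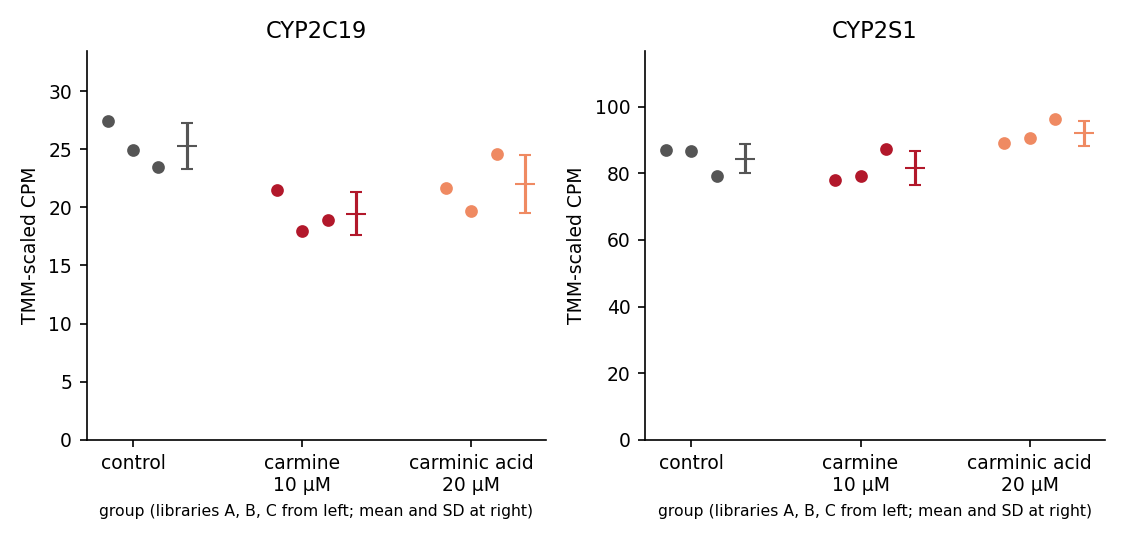
TMM-scaled CPM of CYP2C19 and of CYP2S1 in each library, with the mean and SD at the right of each group (n = 3). CYP2C19 is at 18.0 to 21.5 CPM with carmine and 23.5 to 27.4 CPM in control, and CYP2S1 is at 89.0 to 96.3 CPM with carminic acid and 78.1 to 87.3 CPM in the other libraries.

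CES1, the liver-type carboxylesterase, had the largest spread within groups of the abundant members. It was at 77.4, 97.0 and 66.7 CPM in control, 77.2, 70.7 and 72.8 CPM with carmine and 69.6, 94.1 and 84.5 CPM with carminic acid. The lowest and the highest library were both controls, and the spread within groups was 14.2%, beside 1.5% from counting. The edgeR coefficient of variation was 11.2% for CES1 and higher for CYP2J2, at 12.5%. Log2 fold changes were -0.13 with carmine (SE 0.127, interval -0.40 to 0.15, edgeR adjusted p = 0.710) and 0.04 with carminic acid (SE 0.127, interval -0.23 to 0.32, 0.933). The pseudogene CES1P1, with an identical run of 140 bases, was far lower at 1.02 ± 0.200 CPM in control.

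CES2, the intestinal form that hydrolyses irinotecan, had the smallest spread within groups of the 9 members (5.03%). It was at 59.5, 61.7 and 57.9 CPM in control, 61.4, 58.0 and 67.8 CPM with carmine and 60.1, 61.5 and 61.7 CPM with carminic acid. Only carmine C stood above the rest. The spread of CYP2S1 was close, at 5.25%, and its edgeR coefficient of variation was lower (6.98% against 7.06% for CES2). The log2 fold change was 0.06 with carmine (SE 0.0754, interval -0.10 to 0.22, edgeR adjusted p = 0.761) and 0.03 with carminic acid (SE 0.0754, interval -0.13 to 0.20, 0.903), so folds above 1.17 and 1.15 were outside the intervals. CES1 held 57.1% ± 3.82 of the joint counts of CES1 and CES2 in control, 54.2% ± 2.09 with carmine and 57.3% ± 3.45 with carminic acid (SD, n = 3). CES3, a lower relative that shares no 50-base stretch with CES2, was at 9.59 ± 0.612, 10.8 ± 1.59 and 10.8 ± 1.66 CPM.

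Carmine and carminic acid were compared directly for all 9 members, at different doses. Besides CYP2C19 and CYP2S1, the log2 difference of carmine from carminic acid was -0.10 for NR1I2 (interval -0.73 to 0.54), 0.28 for CYP3A4 (-0.39 to 0.95), -0.01 for CYP3A5 (-0.19 to 0.16) and -0.21 for CYP2B6 (-0.75 to 0.33). It was 0.18 for CYP2J2 (-0.12 to 0.47), -0.17 for CES1 (-0.44 to 0.10) and 0.03 for CES2 (-0.13 to 0.19). The intervals were narrow for CYP3A5 (folds of 0.875 to 1.12) and CES2 (0.913 to 1.14) and wide for the scarce genes, reaching folds of 1.93 for CYP3A4, 0.593 for CYP2B6 and 0.601 for NR1I2. CYP3A4, CYP2B6 and CYP2J2 had larger log2 differences in this comparison than CYP2S1.

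Leaving out carmine C called no member, at edgeR adjusted p-values of 0.0690 or more. Against control the log2 fold changes of the members not yet given without it were -0.10 for CYP3A5, -0.21 for CYP2B6, 0.17 for CYP2J2, -0.097 for CYP2S1, -0.11 for CES1 and 0.005 for CES2. Against carminic acid they were -0.46 for NR1I2, 0.43 for CYP3A4, 0.047 for CYP3A5, -0.15 for CYP2B6 and -0.15 for CYP2C19. CYP2J2 gave 0.21, CES1 -0.15 and CES2 -0.025. NR1I2 thus moved most in both comparisons, and CYP3A4, CYP3A5 and CES2 changed sign in one of them.

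The level of NR1I2 was set against that of each of the other 8 members across the 9 libraries. The largest Pearson coefficient was with CYP2S1 (Pearson r = 0.69, exact permutation p = 0.0418, 0.335 adjusted over the 8 relations, Spearman rho 0.53, exact p = 0.148). Without the 2 libraries farthest from the median of NR1I2, carmine A and carmine C, r was 0.63 (exact p = 0.137, n = 7). As deviations from group means it was 0.94 (exact permutation p = 0.00463 over 216 orders, adjusted 0.0370). That p is the smallest these orders allow, and the value of 0.94 includes carmine A and carmine C. With CYP3A4, the target gene, r was -0.39 (exact p = 0.301), with CYP2B6 -0.20 and with CYP2C19 0.25. CES2 had 0.52 and the largest Spearman rho, 0.60 (exact p = 0.0968), and CES1 had r of 0.32, CYP3A5 0.16 and CYP2J2 -0.09. Without carmine A and carmine C, r was larger for CYP2C19 (0.68), CES1 (0.65) and CES2 (0.65) than for CYP2S1. None of the 8 values over the undivided 9 libraries passed after adjustment, and NR1I2 rests on 35 to 75 counts per library.

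For each member, the gene whose level was most like it across the 9 libraries was taken from 13165 genes, as a description, since so many genes and so few libraries give high values in any case. CYP2J2 went with FGB, the fibrinogen beta chain (r = 0.983), CES2 with BAK1 (0.977), CYP2S1 with ABCA3 (0.968) and NR1I2 with AKAP17A (0.945). CYP3A4 went with LEMD3 (0.942), CYP3A5 with ZNF550 (0.938), CYP2C19 with HERC2P2 (0.935), CYP2B6 with MYLK3 (0.929) and CES1 with AFAP1L1 (0.927). The number of genes above 0.9 ran from 1 for CYP2B6 and CES1 to 69 for CES2.

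No other P450 enzyme of families 1 to 4 passed the test against control. Of 25 genes, 17 were tested, and 9 were positive with carmine and 8 with carminic acid (medians 0.03 and -0.07), with 0 called. CYP2W1, a P450 known from colorectal tumours, was the most abundant of them in CPM, at 398 ± 78.4, 505 ± 122 and 462 ± 24.9 CPM in control, carmine and carminic acid, with log2 fold changes of 0.35 (edgeR adjusted p = 0.474) and 0.21 (0.746). CYP1A1, which oxidises aromatic hydrocarbons and responds to the receptor AHR, had the smallest p in both comparisons with control, at 8.20 ± 0.978 CPM with carmine and 9.13 ± 0.216 CPM with carminic acid against 5.47 ± 0.238 CPM in control (SD, n = 3). Its log2 fold change was 0.58 (SE 0.114, edgeR adjusted p = 0.116) and 0.74 (SE 0.114, 0.129), and no treated library overlapped a control library. With DESeq2 the adjusted p was 0.00221 and 3.58e-05, with limma-voom 0.0446 and 0.00162, and with trends removed 0.00916 and 0.00723. The adjusted p was under 0.05 in 7 of 20 alternatives for carmine (range 0.00221 to 0.508) and in 7 of 19 for carminic acid (3.58e-05 to 0.505), and the replicate block gave 0.239 and 0.234. For carmine against carminic acid the smallest p was that of CYP2U1, a fatty acid hydroxylase, at 0.19 (edgeR adjusted p = 0.606).

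Genes of electron transfer to P450 enzymes and of heme supply and breakdown mostly had positive log2 fold changes with carmine, none past the threshold. The breakdown genes in the list are the heme oxygenases HMOX1 and HMOX2 and the biliverdin reductases BLVRA and BLVRB. With carmine these were at 0.225, 1.743, 0.021 and 0.252. Of 20 genes, all tested, 19 were positive with carmine, 12 with carminic acid and 14 for carmine against carminic acid, with medians of 0.12, 0.03 and 0.08, and 0 were called in each. Among all tested genes 51.7% were positive with carmine. POR, the reductase that serves every microsomal P450, was at 166 ± 7.51, 179 ± 33.1 and 182 ± 9.53 CPM, and ALAS1, the first enzyme of heme synthesis, at 75.4 ± 3.99, 80.6 ± 4.26 and 78.5 ± 5.54 CPM. FDX1, the ferredoxin of mitochondrial P450 enzymes, had the smallest p with carmine, at 64.1 ± 3.53 against 53.0 ± 3.53 CPM (0.27, SE 0.0812, edgeR adjusted p = 0.343), and HMOX1, the inducible heme oxygenase, with carminic acid, at 75.9 ± 5.35 against 64.2 ± 1.05 CPM (0.24, SE 0.0859, 0.717). FDX1 also had it for carmine against carminic acid (0.33, edgeR adjusted p = 0.299, and 0.0274 with DESeq2). With trends in GC content and length removed, the adjusted p of FDX1 was 0.0331 for carmine against control and 0.175, at 0.27, for carmine against carminic acid. Without carmine C it was 0.167 and 0.0268. Over 20 alternatives each it ran from 0.0331 to 0.671 and from 0.0268 to 0.927. HMOX2, the constitutive form, gave the extreme values of the list (1.74 and 2.61 against control), but from levels of 0.403 to 5.41 CPM that varied within groups (edgeR adjusted p = 0.557 and 0.717). The part of the annotation used for counting in these low values was not tested.

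Receptors and transcription factors of P450 genes were split with carmine. Of 40 genes, 37 were tested, and 18 were positive with carmine and 27 with carminic acid (medians -0.00 and 0.06), with 0 called. Among all tested genes 48.1% were positive with carminic acid. HNF4A, the hepatocyte and gut factor that many P450 genes need, was at 1100 ± 35.6, 1049 ± 13.8 and 1183 ± 41.1 CPM, and NR1I3, which encodes CAR, at 19.9 ± 1.05, 19.1 ± 2.32 and 21.0 ± 2.43 CPM, so NR1I3 had the higher CPM of the 2 xenobiotic receptor genes. CEBPB, a stress-responsive bZIP factor, had the smallest p with carmine, at 37.9 ± 8.33 against 27.5 ± 1.35 CPM (0.46, SE 0.122, edgeR adjusted p = 0.322). It also had it for carmine against carminic acid (0.36, SE 0.122, 0.439), and with the trends removed its edgeR adjusted p was 0.00603 and 0.0205. Over 20 alternatives each it ran from 0.00603 to 0.671 and from 0.0205 to 0.927, and without carmine C the log2 fold changes were 0.28 (edgeR adjusted p = 0.135) and 0.18 (0.177). RXRA, the partner of PXR, had it with carminic acid, at 305 ± 7.75 against 269 ± 11.6 CPM (0.18, SE 0.0785, 0.717). NR1H4, the bile acid receptor, was the gene farthest above control with carmine (0.51, edgeR adjusted p = 0.322).

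PXR targets other than the members, such as ABCB1 and UGT1A1, were about evenly divided in sign. Of 30 genes, 24 were tested, and 14 were positive with carmine and 12 with carminic acid (medians 0.03 and 0.00), with 0 called. ABCB1, the efflux pump P-glycoprotein, was at 69.4 ± 3.62, 64.7 ± 2.29 and 66.8 ± 6.23 CPM. The smallest p with carmine was that of ALDH1A1, a retinal dehydrogenase (559 ± 45.5 against 502 ± 11.8 CPM, 0.15, SE 0.0725, edgeR adjusted p = 0.454). With carminic acid it was that of the uptake carrier SLCO1B1, at 0.119 ± 0.0254 against 0.265 ± 0.0869 CPM (-1.15, SE 0.443, edgeR adjusted p = 0.717), and SLCO1B1 again had it for carmine against carminic acid (1.18, 0.479).

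Other esterases and epoxide hydrolases, 11 of 14 tested, were positive in 9 cases with carmine and 7 with carminic acid (medians 0.11 and 0.03), with 0 called. ESD, esterase D, had the smallest p with carmine, at 108 ± 5.01 against 93.6 ± 5.17 CPM (0.20, SE 0.0720, edgeR adjusted p = 0.384, 0.0493 with the trends removed, and 0.0450 to 0.676 over 20 alternatives). EPHX1, the microsomal epoxide hydrolase, had it with carminic acid, at 305 ± 15.8 against 263 ± 25.8 CPM (0.21, SE 0.0847, 0.717). PON3, a lactonase, had it for carmine against carminic acid (0.23, SE 0.0842, 0.475).

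**Figure D4:**
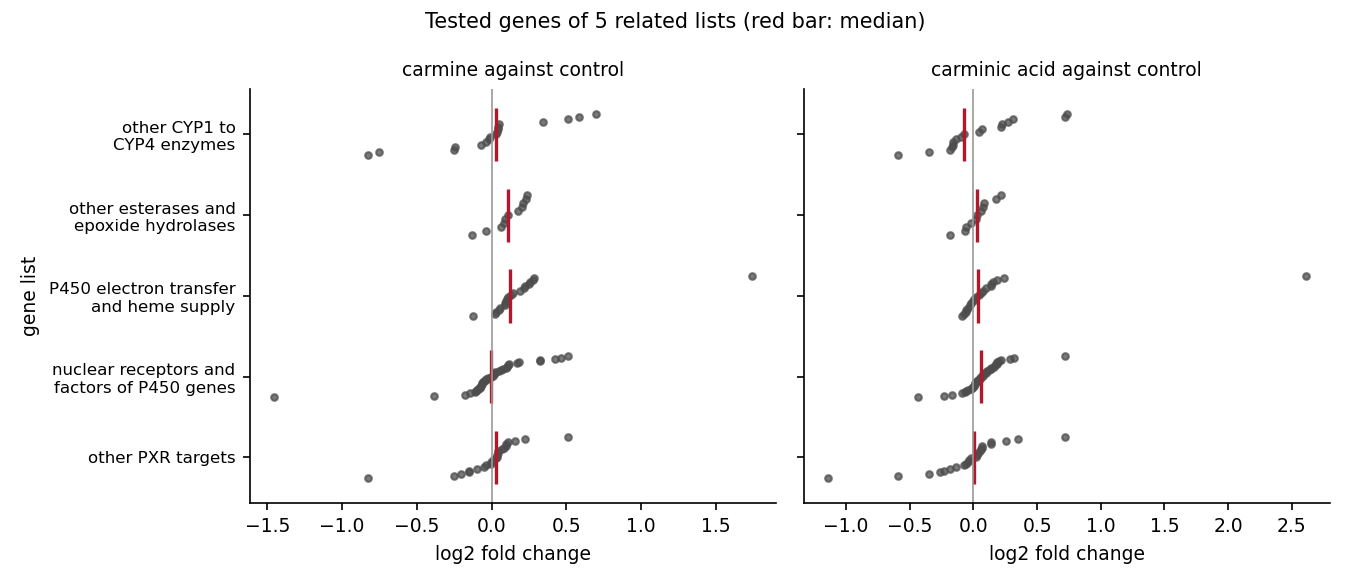
Log2 fold change of every tested gene in 5 lists related to the members, for carmine and carminic acid against control, with a red bar at the median of each list. With carmine, 19 of the 20 genes of electron transfer, heme supply and heme breakdown lie above 0. Medians of the other lists with carmine lie between -0.00 and 0.11.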

How the data were processed

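Total RNA of differentiated Caco-2 cells was sequenced in 9 libraries, 3 per group. The deposited values are raw counts per NCBI Gene ID, 1 file per library, made from HISAT2 alignments per the file headers. Per the submitters' processing notes, the tools were FastQC, HISAT and featureCounts on hg38, with no versions. Read length, strand, annotation release and the handling of multi-mapped reads: not given in the sources used here.

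The counts were fitted in edgeR 4.0.16 under R 4.3.3: filterByExpr by group, which left 16017 of 28395 genes, TMM scaling, 1 robust quasi-likelihood model of all 9 libraries without covariates, and 3 two-sided contrasts with Benjamini-Hochberg adjustment over all tested genes. The threshold was 0.05. The biological coefficient of variation was 10.9%. The script was tested on simulated counts. DESeq2 1.42.0 and voom with sample weights in limma 3.58.1 were alternatives, besides other scalings, filters, designs and removal of trends in GC content and transcript length, and a replicate block. Removal of the trends rests on the longest GENCODE 29 transcript of each gene paired with RefSeq, known for 15454 tested genes. Levels per kilobase use the same transcripts.

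The members and the lists of related genes were chosen with earlier results of these data known. Named genes are the 9 members, every called gene of a list or else its gene with the smallest p, the gene most like each member across the 9 libraries among those averaging a log2 CPM of 0 or more, and near relatives that may share reads, of which 1 is not reported here. Other list genes (CYP2W1, VIL1, KRT20, CYP7A1, NEUROD1, DEFA5, POR, ALAS1, HMOX2, HNF4A, NR1I3, NR1H4 and ABCB1) and CNIH1 were named after their values were seen. The same holds for AGR2, ZG16, CD68, COL1A1, COL1A2, PTPRC, BLVRA, BLVRB, SERPINA1 and APOC3. Deviations from group means of same-lettered libraries correlated at -0.15 to 0.10, which cannot settle whether the letters A to C pair libraries. Libraries of a group differed by a chi-square per degree of freedom of at least 9.51, so none was treated as a copy. Upstream sequences are from RefSeq on GRCh38.p14, matched for 8 of the 9 members.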

Additional observations from a re-analysis of the deposited data

How the results depend on the processing

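CYP3A4, CYP2B6 and NR1I2 had 24 to 75 counts per library. The spread within groups exceeded the counting error for NR1I2 (28.9% against 13.3%), CYP3A4 (26.6% against 15.7%) and the 6 abundant members (5.03% to 14.2% against 1.44% to 4.83%), and was close to it for CYP2B6 (16.1% against 15.0%). Removal of trends in GC content alone, with 3 spline terms, or together with leaving out carmine C was chosen after seeing the data.

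No alternative called a member, with 1 exception. For carmine against control, 1 member (CYP2C19) was called with the trends in GC content and length removed, also with 3 spline terms (1 member, adjusted p = 0.0423). Over its 20 alternatives the log2 fold change of CYP2C19 for carmine against control ran from -0.45 to -0.31 and its adjusted p from 0.0423 to 0.671. The replicate block gave -0.38 (adjusted p = 0.427), and called 0 members and 0 genes in each comparison, so CNIH1 was lost. As deviations from group means, same-lettered libraries of different groups correlated at 0.10 or less, which cannot settle whether the letters mark a pairing. Members without overlap numbered 2 with carmine against control after removal of the trends (CYP2C19 lower, CES2 higher), 0 with carminic acid against control, and 2 for carmine against carminic acid (CYP3A5 lower, CES2 higher). Among all tested genes after this removal, 7.96% were wholly lower and 15.4% wholly higher with carmine against control, 5.79% and 12.9% with carminic acid, and 5.68% and 7.22% for carmine against carminic acid. CYP3A4 and CYP2B6 gave no value under the CPM filter.

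Counts of all genes called depended on the setting, and the cause was not tested. For carmine against control they were 7 with RLE factors, library size alone or mitochondrial genes left out, 19 with no filter, 75 with DESeq2, 51 with limma-voom, 12 with the 6 libraries alone, 371 with both trends removed, 253 with the GC trend removed, 361 with 3 spline terms, 157 with the trends and carmine C removed, and 1 to 36 leaving out a library each, 36 without carmine C. For carminic acid against control they were 2 with no filter, 8 with DESeq2, 82 with limma-voom, 49 with the 6 libraries, 4 with the trends removed by 5 or by 3 spline terms, 3 with the GC trend removed, and 0 to 1 leaving out a library. For carmine against carminic acid they were 2 with RLE factors, library size alone or mitochondrial genes left out, 9 with no filter, 77 with DESeq2, 82 with limma-voom, 0 without robust estimation, 10 with the trends removed, 6 with the GC trend removed, 9 with 3 spline terms, 28 with the trends and carmine C removed, and 0 to 685 leaving out a library, 685 without carmine C.

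Of 525 member values under alternatives, 495 kept their direction and 30 reversed, in 12 of the 27 fold changes, none above 0.19 in size. For carmine against control, limma-voom gave 0.16 for CYP3A4 and -0.004 for CES2, and the trends and carmine C removed gave 0.016 for CYP3A4. For carminic acid against control, limma-voom gave 0.089 for CYP2B6 and -0.033 for CES1, and removing both trends, the GC trend, or both with 3 spline terms gave 0.005, 0.005 and 0.001 for CYP2J2 and -0.009, -0.005 and -0.011 for CES2. For carmine against carminic acid, limma-voom gave 0.025 for CYP3A5 and -0.026 for CES2. Leaving out a library each, values ran from -0.56 to 0.052 (NR1I2), -0.32 to 0.074 (CYP3A4) and -0.24 to 0.032 (CES1) for carmine against control. They ran from -0.28 to 0.037 (NR1I2), -0.22 to 0.12 (CYP2B6), -0.16 to 0.031 (CYP2J2) and -0.079 to 0.20 (CES1) for carminic acid against control, and from -0.46 to 0.14 (NR1I2), -0.059 to 0.047 (CYP3A5) and -0.025 to 0.081 (CES2) for carmine against carminic acid. As deviations from group means, the relation of NR1I2 with CYP2J2 turned to 0.02 and that with CYP2S1 was 0.94. The 15 fold changes of list genes kept their direction in all 293 values.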
